A study of Mus musculus with 56 samples.

Results

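The anterior hypothalamus holds the central clock and the cells that govern body temperature, drinking and hormone release, and it was sampled here in mice that were about to be fed at opposite ends of the day. The 8 mice described were 4 day-fed mice taken at zeitgeber time (ZT) 0, lights-on, and 4 night-fed mice taken at ZT12, lights-off, out of 56 mice in all. They were chosen by regimen and hour, so that both groups stood at the end of the daily fast. They differed by 12 h in clock time and also in regimen. Dawn and dusk in this comparison therefore stand for hour and regimen together, which cannot be told apart in these 8 mice. All were female C57BL/6J mice, group housed on chow, 9 weeks old, kept under 12 h of light and 12 h of dark, and held on their feeding schedule for 7 days. Day time-restricted feeding (DRF) gave food during the light phase, from ZT0 to ZT12, and night time-restricted feeding (NRF) gave it during the dark phase. RNA sequencing was run on the dissected anterior hypothalamus of each mouse, with 4 mice in each of 14 groups. Groups used for comparison were DRF ZT24, NRF ZT0 and DRF ZT12, with 4 mice each: DRF ZT24 repeats by its schedule the pre-meal state of DRF ZT0 at the other end of the collection, and NRF ZT0 and DRF ZT12 are mice at the end of the meal. Whether the ZT0, ZT12 and ZT24 mice were taken before or after the lights and the food changed is not given in the sources used here.

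Mammalian cells keep time with a loop in which BMAL1 (Arntl) and CLOCK drive their own repressors, the PER and CRY proteins, through the E-box sequence CACGTG. REV-ERB and DEC repressors and the PAR bZIP factors, of which DBP is the best known output, form further arms of the loop. Glucocorticoids, whose blood level in nocturnal rodents normally peaks near lights-off and which also rise before an expected meal, act through a nuclear receptor that binds paired AGAACA and TGTTCT elements. Body temperature varies with feeding and time of day, and temperature in turn is known to move the heat-shock genes and the cold-inducible RNA-binding protein genes Cirbp and Rbm3.

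Gene levels are given as CPM, read counts scaled to a common library size, recovered from the deposited values, and differences as log2 differences of CPM + 1, DRF ZT0 minus NRF ZT12, so that a negative value means a lower level at dawn in the day-fed mice. The normalised library size was 29591268 to 34493346 reads over all mice, and Pearson correlations between mice of 1 group were 0.9948 to 0.9973 at DRF ZT0 and 0.9948 to 0.9966 at NRF ZT12. Of 16212 genes tested with limma, 21 differed at an adjusted p under 0.05, which was 0.130% of the genes, with 6 higher (0.0370%) and 15 lower (0.0925%) at DRF ZT0. The median size of these 21 differences was 0.61, with 1 gene at or above 1 and 13 at or above 0.5. At an unadjusted p under 0.05 the count was 2531 genes (15.6%). The mice of the 2 groups did not overlap in 1213 of all genes tested (7.48%). A comparison added after the data were seen, DRF ZT0 against DRF ZT24, set mice of 1 regimen and 1 clock hour side by side and gave 1 gene at an adjusted p under 0.05 (0.00617%) and 2534 (15.6%) at an unadjusted p under 0.05. The unadjusted counts were thus as large between same-hour groups as between dawn and dusk, and only adjusted p-values are used below to call a gene. In simulated data made for these 2 groups with 4 mice each, 73.1% of genes changed by 0.5 on the log2 scale were recovered and 16.4% of those changed by 0.25, so that smaller differences would mostly be missed. The simulation drew each gene independently, without variation shared over genes, and called 125 genes, so that recovery in the mice themselves may be lower.

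**Figure D1:**
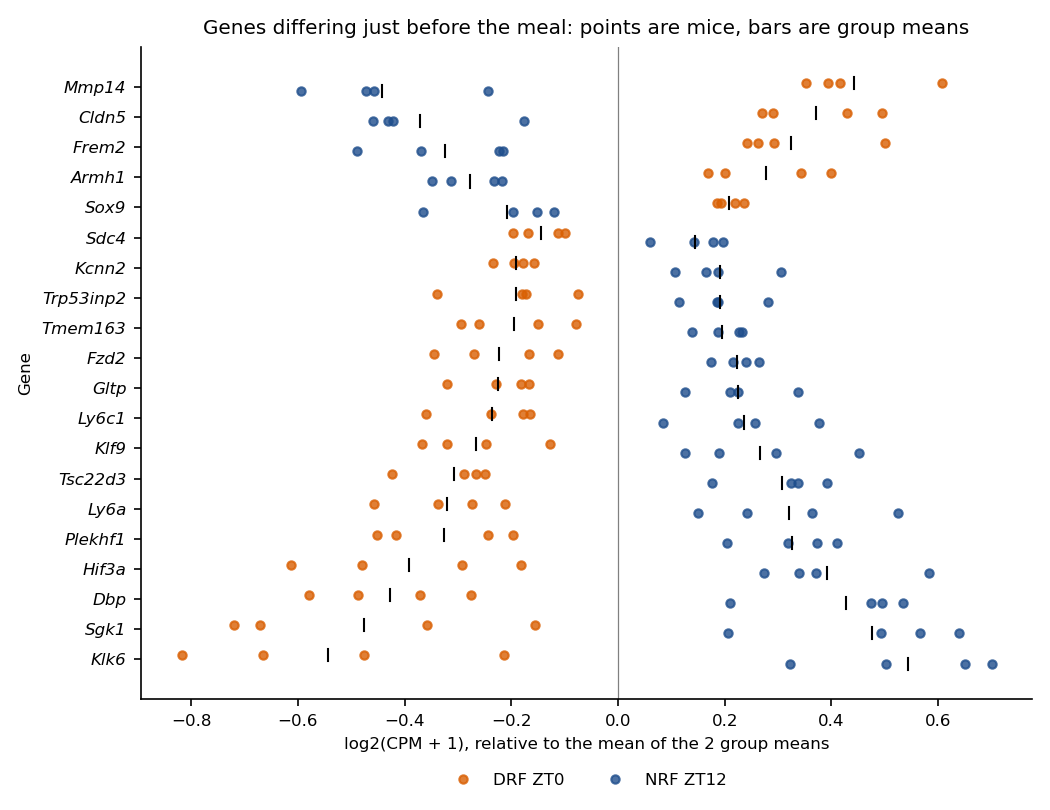
The plot shows 20 of the 21 genes with an adjusted p under 0.05, as log2(CPM + 1) of each mouse relative to the mean of both group means; points are the 4 DRF ZT0 (orange) and 4 NRF ZT12 (blue) mice, bars their group means, and the 5 upper genes were higher and the 15 lower genes lower at DRF ZT0. The groups overlapped in none of the 20, which adds no further support, as these genes were chosen by this same difference.

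Marker genes of several cell types and brain regions moved with the groups and are given before the other genes. Summed CPM of the 8 oligodendrocyte markers was 4385 to 6360 at DRF ZT0 and 7126 to 9398 at NRF ZT12, with no overlap, and all 8 differences were negative (median -0.59, 0 of 8 called). The 4 thalamus markers summed to 40.5 to 79.2 at DRF ZT0 and to 60.4 to 283.1 at NRF ZT12, and the 4 cortex markers to 14.1 to 21.6 and 24.02 to 52.1. In the other direction, the 8 anterior hypothalamus markers summed to 615 to 874 and 407 to 685, the 5 ependyma markers to 55.3 to 82.8 and 41.5 to 59.9, and the 5 striatum markers to 145 to 202 and 114 to 142. All 5 blood markers were also higher at DRF ZT0 (median 0.88, 0 called), with sums of 338 to 954 against 221 to 526, and all 8 microglia markers were lower (median -0.14, 0 called), with sums of 276 to 309 against 303 to 330; both sums overlapped. All 8 anterior hypothalamus markers passed the filter on low values, which was set over all 56 mice, and 6 of 7 pituitary markers did not. In bulk tissue, fewer cells of a type and less RNA per cell cannot be told apart. Leaving out the pair of NRF ZT12 mice with the highest thalamus markers left 6 mice and 0 genes called (950 at an unadjusted p under 0.05), and a covariate for the summed thalamus or oligodendrocyte markers also left 0 (628 and 579). All 20 genes plotted kept their sign under each of these 3 alternatives. Their median size, 0.58, was 0.53 without that pair of mice, 0.52 with the thalamus covariate and 0.46 with the oligodendrocyte covariate. Of the 20, 5 grew in size without that pair and 4 with each covariate, and the others shrank. The lowest ratios to the main size were 0.80 (Klf9) without that pair, 0.69 (Klf9) with the thalamus covariate and 0.37 (Trp53inp2) with the oligodendrocyte covariate. Dbp was at -0.74 and -0.97 with the thalamus and oligodendrocyte covariates and Cldn5 at 0.85 and 0.83, whereas Sgk1 was at -0.95 and -0.52. These alternatives were added after the data were seen. Since the oligodendrocyte sums did not overlap, that covariate and the groups cannot be told apart in 8 mice.

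**Figure D2:**
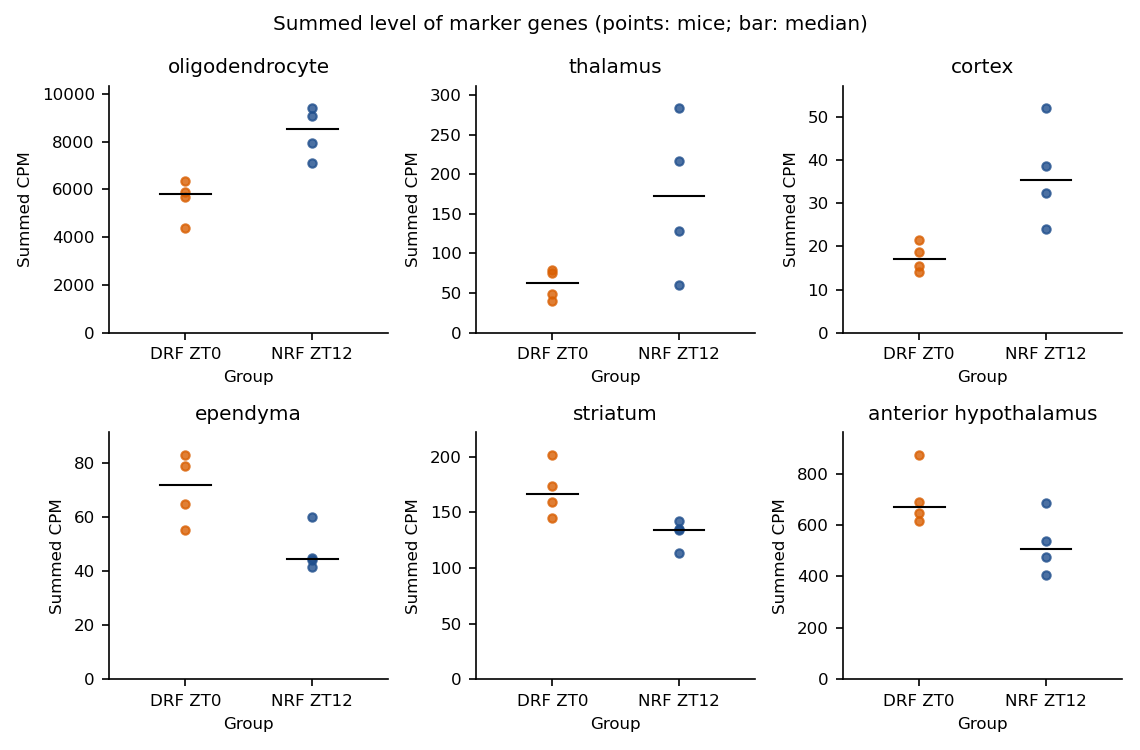
Summed CPM of 6 sets of marker genes in each of the 8 mice, with bars at the group medians. Oligodendrocyte and cortex markers were higher in all 4 NRF ZT12 mice, striatum markers were higher in all 4 DRF ZT0 mice, and thalamus markers reached 283.1 in 1 NRF ZT12 mouse.

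Genes that respond to glucocorticoids gave the most called members of any list. Sgk1 (chr10:21882184-21999903), a kinase gene induced by glucocorticoids, has 6 annotated start sites in the RefSeq promoter table (GRCm38.p6), and 1 of them carries both elements 3 bases apart. The sequence shown is the window from 250 bases before to 50 after that start site, chr10:21993640-21993939 on the plus strand, with an E-box and the paired AGAACA and TGTTCT elements in capitals.

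Sgk1: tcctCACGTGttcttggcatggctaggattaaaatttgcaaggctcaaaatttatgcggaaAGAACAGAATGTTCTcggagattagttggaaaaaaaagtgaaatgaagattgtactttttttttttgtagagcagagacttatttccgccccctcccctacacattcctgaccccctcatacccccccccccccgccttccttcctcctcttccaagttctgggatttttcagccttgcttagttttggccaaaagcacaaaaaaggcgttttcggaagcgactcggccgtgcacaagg

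The paired site begins at -189, counted from the start site as 0, and is found in 3 of 32851 such windows (0.00913%), the single element AGAACA on either strand, which it contains, in 19.0%, and CACGTG in 7.15%. A match describes letters in a window and is not evidence of binding. Of the 3 annotated starts of Tsc22d3, 1 window held AGAACA, and the Klf9 window held neither.

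Sgk1 was 45.5, 65.4, 43.9 and 56.7 CPM in the 4 DRF ZT0 mice and 103, 84.3, 108 and 114 in the 4 NRF ZT12 mice. The groups did not overlap, and Sgk1 was 1.93-fold higher at dusk (log2 difference -0.95 ± 0.13, SE; limma adjusted p = 0.0263). Tsc22d3 (chrX:140539528-140600522), which encodes the glucocorticoid-induced leucine zipper, was 65.3, 72.9, 71.8 and 73.8 CPM at DRF ZT0 and 110.2, 99.5, 116 and 111 at NRF ZT12. Its mice were tightly grouped on either side, with a difference of -0.61 ± 0.057 (adjusted p = 0.00334). Klf9, a Krüppel-like transcription factor gene, was 62.05, 73.5, 67.5 and 64.1 CPM at DRF ZT0 and 110.2, 87.8, 98.8 and 91.7 at NRF ZT12, again without overlap (-0.53 ± 0.075, adjusted p = 0.0321). In all, 3 of the 13 glucocorticoid receptor and target genes were called lower at DRF ZT0 and 0 higher, and the list median was -0.060 beside 0.0022 over all genes. The list did not move as a whole: 10 differences were negative and 3 positive, the largest 0.52. Set against the same NRF ZT12 mice, DRF ZT24 had 5 of the 13 called lower and 1 called higher. Zbtb16, a zinc finger gene and a further target, was 25.2, 19.6, 15.8 and 22.8 CPM against 36.02, 28.1, 30.1 and 42.5 CPM, without overlap, but missed the threshold (difference -0.69, adjusted p = 0.0865). Fkbp5, a co-chaperone of the receptor, had a difference of -0.056 (95% interval -0.202 to 0.091), and Nr3c1, the glucocorticoid receptor, of -0.022 (-0.16 to 0.12). For both genes the interval included 0.

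The order of the 5 groups was followed for Sgk1. Mean Sgk1 was 102 ± 12.9 CPM (SD) at NRF ZT12, 53.6 ± 25.7 at DRF ZT12, 52.9 ± 10.1 at DRF ZT0, 45.2 ± 13.9 at DRF ZT24 and 31.1 ± 3.45 at NRF ZT0. The group means were thus highest and lowest in night-fed mice. Single mice overlapped: 1 DRF ZT12 mouse, at 88.9 CPM, was above the lowest NRF ZT12 mouse, and 1 DRF ZT24 mouse, at 25.6 CPM, was below every NRF ZT0 mouse. Dawn minus dusk was 0.07 in DRF and -1.68 in NRF, and the difference between regimens passed the test (1.76, adjusted p = 0.00639). For Tsc22d3 dawn minus dusk was -0.24 in DRF and -0.96 in NRF (difference between regimens 0.73, adjusted p = 0.000455), and for Klf9 it was -0.18 and -0.76 (0.59, adjusted p = 0.0071). In each of these genes the dawn-to-dusk step was smaller in size in day-fed than in night-fed mice. The DRF step of Sgk1 depended on DRF ZT12 replicates 3 and 4, at 88.9 and 56.2 CPM. Replicates 1 and 2, at 33.1 and 36.1 CPM, lay below every DRF ZT0 mouse, which is opposite in direction to the NRF step. In this design the difference between regimens in the step is 2 times the difference between the end of the fast and the end of the meal given further on, so that both are 1 test with 1 p-value, and the readings cannot be told apart.

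Hif3a and Sdc4 were lower at DRF ZT0 with a like pattern over the groups. Hif3a (chr7:17030993-17062427), an alpha subunit of the hypoxia-inducible factor family, was 14.5, 10.5, 11.6 and 13.4 CPM at DRF ZT0 and 25.4, 20.3, 21.3 and 21.8 at NRF ZT12 (-0.78 ± 0.103, adjusted p = 0.0257). In night-fed mice at ZT0 it was 3.67, 2.28, 2.11 and 3.68 CPM, far below every other group, whereas day-fed mice at ZT12 (13.7, 12.8, 12.8 and 11.3) overlapped those at ZT0. Dawn minus dusk was thus -0.02 in DRF and -2.58 in NRF, and the difference of 2.56 was the largest among the genes described (adjusted p = 2.72e-06). Sdc4, a heparan sulfate proteoglycan of the cell surface, was 70.8, 72.2, 75.8 and 75.1 CPM at DRF ZT0 and 89.8, 84.8, 93.3 and 92.1 at NRF ZT12 (-0.29 ± 0.046, adjusted p = 0.0459), and the regimens differed in its dawn-to-dusk step by 0.63 (adjusted p = 0.000455). Plekhf1, which encodes a phosphoinositide-binding protein of endosomes, was 3.76, 4.68, 3.88 and 4.497 CPM against 7.66, 7.43, 6.496 and 7.12 CPM (-0.65 ± 0.089, adjusted p = 0.0287). Fzd2, a Wnt receptor, was 12.4, 13.9, 13.4 and 11.7 CPM against 17.8, 18.1, 17.2 and 18.4 CPM (-0.45 ± 0.07, adjusted p = 0.0441). Both were lower in every DRF ZT0 mouse than in any NRF ZT12 mouse.

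**Figure D3:**
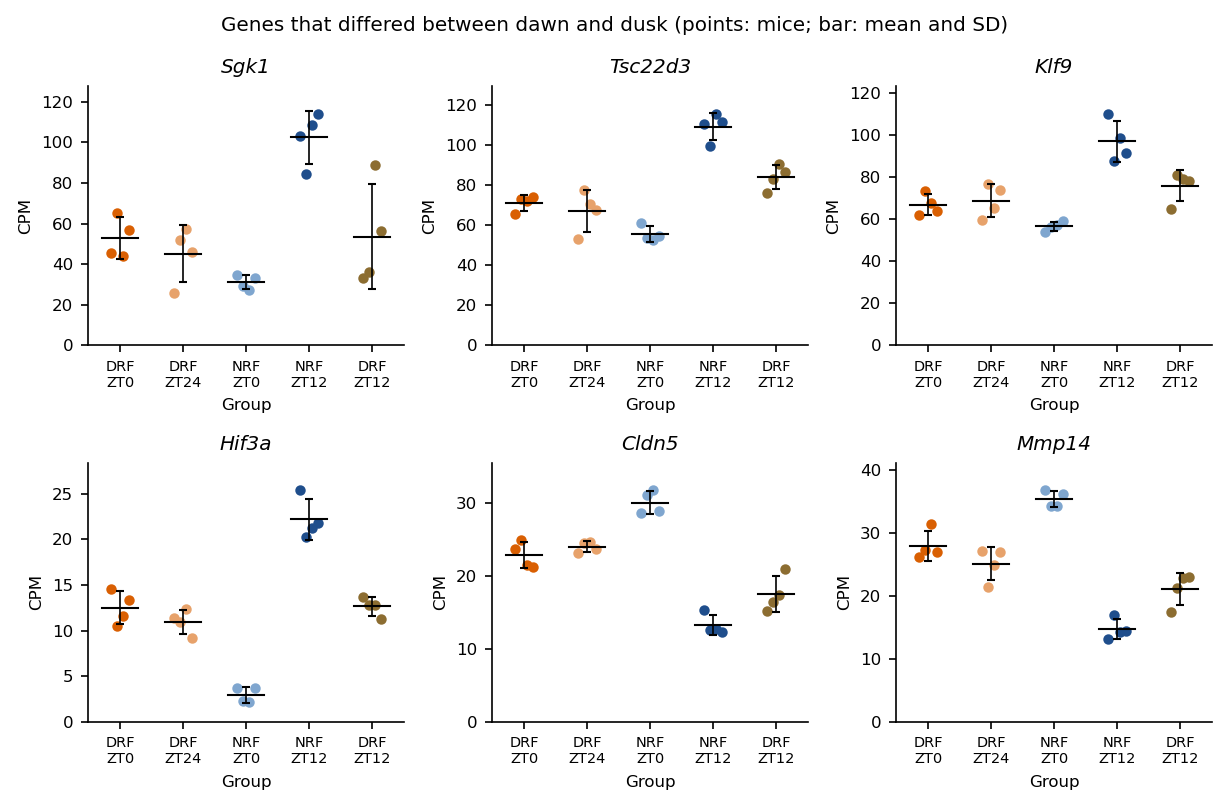
CPM of 6 genes in each mouse of the 5 groups, with bars at the mean and SD of 4 mice. The group means of Sgk1, Tsc22d3, Klf9 and Hif3a were highest at NRF ZT12, and those of Cldn5 and Mmp14 were lowest there and highest at NRF ZT0.

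Of the clock genes, Dbp alone was called. Dbp (chr7:45705100-45710203) was 58.95, 55.2, 50.8 and 47.6 CPM in the DRF ZT0 mice and 101, 104, 99.8 and 82.9 in the NRF ZT12 mice, a level that rests on an annotated gene length and is approximate. It was 1.81-fold higher at dusk (-0.86 ± 0.083, adjusted p = 0.00334), and dawn minus dusk was -0.53 in DRF and -1.22 in NRF (adjusted p of the difference 0.00486). Among the other members of its list, the PAR bZIP factors Tef and Hlf and their opponent Nfil3, differences were -0.046, -0.47 and 0.201, and none passed. The list median was -0.26, with 1 of 4 called lower and 0 higher.

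The PER, CRY and CHRONO repressors gave 0 of 6 called, with a median of -0.16. Ciart, the gene of the CHRONO repressor, came nearest to the threshold at 16.1, 13.4, 13.04 and 11.5 CPM against 23.2, 22.7, 22.5 and 18.3 CPM, without overlap (-0.65 ± 0.105, adjusted p = 0.0558). Its promoter window, chr3:95882179-95882478 on the minus strand, is shown because it held 3 E-boxes, in capitals, more than the windows of Dbp, Per1, Nr1d1 and Bhlhe41 held.

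Ciart: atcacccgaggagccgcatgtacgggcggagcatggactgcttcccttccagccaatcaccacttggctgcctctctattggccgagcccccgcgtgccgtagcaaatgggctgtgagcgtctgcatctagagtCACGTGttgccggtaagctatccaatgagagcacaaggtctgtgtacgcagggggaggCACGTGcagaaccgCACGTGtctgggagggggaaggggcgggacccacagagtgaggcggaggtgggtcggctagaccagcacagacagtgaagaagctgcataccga

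Per2 was 39.4, 35.7, 38.6 and 31.6 CPM at DRF ZT0 and 46.00, 45.8, 42.6 and 48.6 at NRF ZT12 (-0.33 ± 0.072, adjusted p = 0.0878), and these groups did not overlap either. Per1 had a difference of -0.11 (95% interval -0.26 to 0.034), Per3 of -0.21 (-0.33 to -0.083), Cry1 of -0.039 (-0.199 to 0.12) and Cry2 of 0.051 (-0.032 to 0.13). The intervals of Per1, Cry1 and Cry2 included 0 and that of Per3 did not, though Per3 missed the adjusted threshold (adjusted p = 0.132). The REV-ERB and DEC repressors also gave 0 of 4 called, all 4 with negative differences from -0.32 to -0.21 (median -0.28). Nr1d1, approximate in level, was 93.4, 90.9, 82.8 and 83.7 CPM against 129, 115, 100.3 and 97.4 CPM (adjusted p = 0.121), and Bhlhe41 64.1, 61.2, 59.7 and 56.9 CPM against 68.00, 73.3, 75.4 and 69.8 CPM (adjusted p = 0.0827).

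On the side of the activators, 0 of 7 were called and the median was 0.15. Arntl was 35.9, 30.4, 35.1 and 32.5 CPM at DRF ZT0 and 27.7, 27.9, 26.9 and 28.5 at NRF ZT12 (0.26 ± 0.061, adjusted p = 0.1), so that the day-fed mice were all above the night-fed ones. Rora, an activator of Arntl that is also strong in thalamus, had a wide interval (-0.76, -1.25 to -0.26) at 57.6, 60.3, 71.8 and 51.5 CPM against 149, 74.8, 137 and 70.4 CPM. Rora did not pass in the fit with the thalamus covariate either, and the part of those markers in it was not tested further. When night-fed mice at dawn and day-fed mice at dusk were added, dawn minus dusk over both regimens gave 290 genes at an adjusted p under 0.05 (1.79%), 128 higher (0.790%) and 162 lower (0.999%) at dawn. By clock list, that contrast called 4 of 6 PER, CRY and CHRONO genes, 3 of 4 REV-ERB and DEC genes and 3 of 4 of the Dbp list lower at dawn, and 1 of 7 activators, Arntl (0.32, adjusted p = 0.000545), higher. It includes the mice of the main comparison and is given beside it for the values: Ciart -0.62, Dbp -0.88, Per2 -0.42, Per3 -0.42. The pre-meal difference was smaller for Per3 (-0.21) and of like size for Dbp (-0.86).

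**Figure D4:**
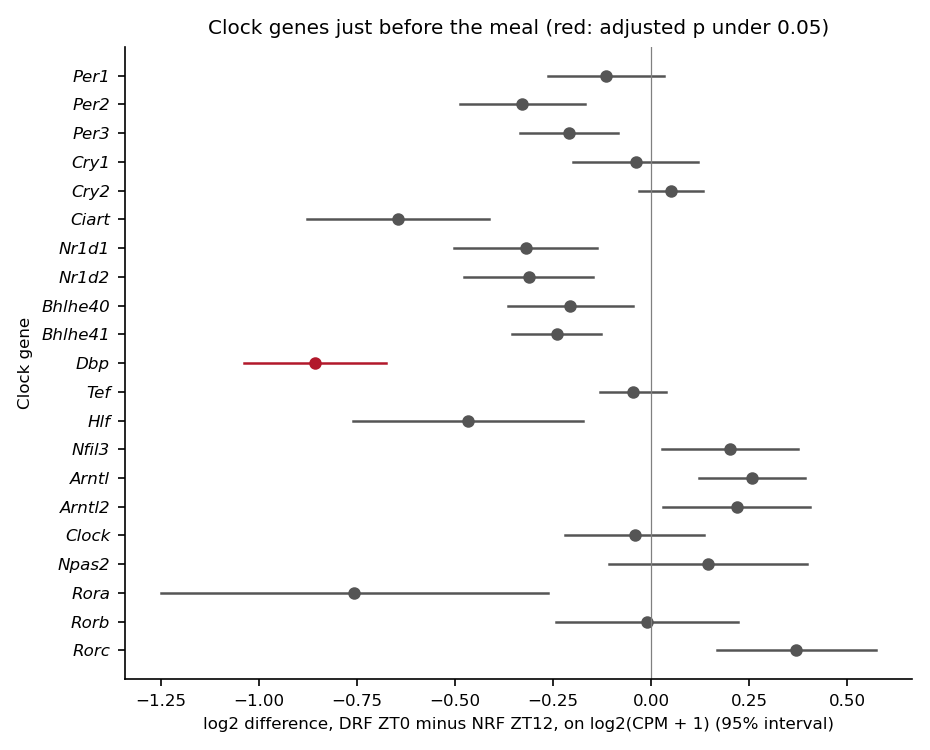
Log2 difference, DRF ZT0 minus NRF ZT12, on the log2(CPM + 1) scale with 95% intervals for 21 clock genes, 4 mice a group. Dbp, at -0.86, is the only one past the threshold, and the intervals of Per1, Cry1, Cry2, Tef, Clock, Npas2 and Rorb include 0.

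Cldn5, Mmp14 and Frem2 were among the genes higher at dawn in the day-fed mice. Cldn5 (chr16:18776847-18778262), the main tight-junction claudin of brain endothelium, was 23.7, 24.9, 21.5 and 21.1 CPM at DRF ZT0 and 15.2, 12.6, 12.7 and 12.4 at NRF ZT12 (0.74 ± 0.084, adjusted p = 0.0103). A pair of other genes of endothelium were called in the opposite direction: Ly6c1 was lower at DRF ZT0 (25.95, 23.8, 27.1 and 27.4 against 40.3, 32.7, 36.2 and 37.00 CPM, -0.47 ± 0.071, adjusted p = 0.0372), and so was Ly6a (10.7, 9.74, 11.2 and 11.7 against 20.2, 15.3, 17.96 and 16.4 CPM, -0.64 ± 0.092, adjusted p = 0.0321). Of the 7 endothelial markers, Cldn5 among them, 2 were higher and 5 lower at DRF ZT0 (median -0.12), and they summed to 229 to 250 CPM at DRF ZT0 and to 232 to 264 at NRF ZT12, which overlapped. Ly6a and Ly6c1 belong to a family of related genes whose reads may be shared. The Ly6c1 level is approximate, whereas that of Ly6a was recovered as whole reads. Mmp14 (chr14:54431598-54442456), a membrane-bound matrix metalloproteinase, was 26.1, 27.4, 31.4 and 26.9 CPM against 13.1, 16.96, 14.3 and 14.5 CPM, 1.85-fold higher at dawn (0.88 ± 0.086, adjusted p = 0.00334). Frem2, an extracellular matrix protein gene, was 4.73, 4.65, 5.76 and 4.85 CPM against 2.696, 3.09, 2.404 and 3.11 CPM (0.65 ± 0.095, adjusted p = 0.0326). For Cldn5, Mmp14 and Frem2 the dawn-to-dusk step was smaller in DRF than in NRF: 0.37 against 1.13, 0.39 against 1.22 and 0.17 against 0.83, with adjusted p of the difference 0.00454, 0.00234 and 0.0103.

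Sox9, a transcription factor of astrocytes and ependyma, was 43.9, 43.1, 44.4 and 42.9 CPM at DRF ZT0 and 28.9, 33.7, 32.6 and 34.5 at NRF ZT12 (0.42 ± 0.059, adjusted p = 0.0321). Armh1, of an armadillo-like protein, was 2.06, 1.66, 1.94 and 1.61 CPM against 0.865, 0.822, 0.974 and 0.994 CPM (0.56 ± 0.08, adjusted p = 0.0321). The ependyma sums given above were also higher in DRF ZT0, while the 8 astrocyte markers summed to 2589 to 2793 CPM and 2462 to 2794 CPM; their part in both genes was not tested. Next by p were Kctd5, an adaptor of ubiquitin ligases (0.31, adjusted p = 0.0605), Gda, guanine deaminase (0.34, 0.0618), Col5a3, a collagen V chain (0.61, 0.0618), and Stoml3, a stomatin-like membrane protein (0.600, 0.0618), none of which passed.

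The remaining genes lower at DRF ZT0 included genes of oligodendrocytes. Klk6 (chr7:43824438-43832027), a serine protease made in the brain mainly by oligodendrocytes, was 1.51, 1.79, 2.82 and 2.18 CPM at DRF ZT0 and 6.19, 4.54, 5.94 and 5.27 at NRF ZT12, the one difference above 1 in size (-1.09 ± 0.13, adjusted p = 0.0203). Gltp, glycolipid transfer protein, was 33.3, 37.2, 35.6 and 36.8 CPM against 53.2, 49.1, 48.6 and 45.8 CPM (-0.45 ± 0.058, adjusted p = 0.0257). Tmem163, a zinc transporter, was 37.9, 32.5, 33.3 and 36.04 CPM against 44.2, 45.7, 47.2 and 47.1 CPM (-0.39 ± 0.058, adjusted p = 0.0338). All 3 were separated by group without overlap, as was the oligodendrocyte marker sum, so that its part in them cannot be told apart from the groups. With that sum as a covariate, Tmem163 had the highest ratio to its main size among the 20 genes plotted, 1.36. Trp53inp2, a cofactor of autophagy and of nuclear receptors, differed by -0.38 ± 0.059 (adjusted p = 0.0425), and Kcnn2, a calcium-activated potassium channel, by -0.38 ± 0.058 (adjusted p = 0.0372). With NRF ZT0 and DRF ZT12 added, a difference is dawn minus dusk over both regimens plus DRF minus NRF over both hours. In that order these were -0.48 and -0.61 for Klk6, -0.14 and -0.25 for Tmem163 and -0.28 and -0.36 for Ly6a. They were 0.21 and 0.21 for Sox9, -0.37 and -0.0097 for Kcnn2 and -0.88 and 0.022 for Dbp. Of these, the regimen part passed only for Klk6 (limma adjusted p = 0.0243).

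The second set of day-fed mice at the same hour was then set against the same NRF ZT12 mice. DRF ZT24 against NRF ZT12 called 153 genes (0.944%), 85 higher (0.524%) and 68 lower (0.419%) in DRF ZT24. Both comparisons share the NRF ZT12 mice, so that their values are given side by side and not as a repeat. In that order, DRF ZT0 then DRF ZT24, the difference was -0.86 and -1.18 for Dbp, -0.95 and -1.21 for Sgk1, -0.61 and -0.704 for Tsc22d3, -0.78 and -0.96 for Hif3a, and -0.65 and -0.81 for Ciart, with adjusted p from 0.000158 to 0.021 in DRF ZT24. Among genes higher at dawn it was 0.74 and 0.82 for Cldn5 and 0.88 and 0.73 for Mmp14, with adjusted p of 0.00268 and 0.0079. Gltp, Trp53inp2, Kcnn2 and Ly6a did not pass in DRF ZT24 (adjusted p 0.13, 0.118, 0.13 and 0.0702), whereas Klk6 (-0.77, adjusted p = 0.0158) and Tmem163 (-0.42, adjusted p = 0.0165) did. The oligodendrocyte sums at DRF ZT24 were 5391 to 7756 CPM and overlapped those of NRF ZT12. Of clock genes, DRF ZT24 also called Per3 (-0.48, adjusted p = 0.00336), Bhlhe41 (-0.35, 0.0158) and Arntl (0.31, 0.0225), with the signs they had at DRF ZT0.

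What the dawn and dusk groups shared was read from a contrast that their difference does not enter: the mean of DRF ZT0 and NRF ZT12, the end of the fast, minus the mean of DRF ZT12 and NRF ZT0, the end of the meal. It called 564 genes (3.48%), 290 higher (1.79%) and 274 lower (1.69%) at the end of the fast, in 16 mice. It is the same test as the difference between regimens in the dawn-to-dusk step given above, on a scale divided by 2. All 5 striatum markers were lower at the end of the fast (median -0.699, 0 called), with sums of 419 and 579 CPM in DRF ZT12 replicates 3 and 4 and of 114 to 284 in the others, and all 8 oligodendrocyte markers were higher (median 0.15, 0 called). Without that pair of mice, an alternative added after the data were seen, 167 genes were called, 156 of them among the 564. The cold-inducible pair, 2 of 2, was called higher with and without those mice. Rbm3, an RNA-binding protein induced by mild cold, was 101, 92.8, 98.8 and 84.00 CPM at DRF ZT0 and 78.8, 101, 117 and 81.2 at NRF ZT12, and 41.6, 58.1, 46.7 and 55.2 at NRF ZT0 and 72.5, 65.6, 56.8 and 67.2 at DRF ZT12. All 8 pre-meal mice lay above all 8 mice at the end of the meal (0.700 ± 0.085, adjusted p = 0.000455). Between dawn and dusk before the meal it differed by 0.011, with a 95% interval from -0.24 to 0.26. Cirbp was 114, 90.8, 92.8 and 97.1 CPM and 86.7, 101, 95.5 and 82.6 CPM in the pre-meal groups and 46.4, 65.00, 53.1 and 64.6 CPM and 77.1, 76.3, 70.1 and 62.8 CPM at the end of the meal (0.57 ± 0.073, adjusted p = 0.000589; dawn against dusk 0.11, -0.069 to 0.29).

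Heat-shock genes moved the other way. Of 18 cytosolic heat-shock genes, 11 were called lower at the end of the fast and 0 higher, with a median of -0.25 (5 lower and a median of -0.21 without DRF ZT12 replicates 3 and 4), whereas DRF ZT0 against NRF ZT12 called 0 of 18 in either direction. The median there was -0.024, and its sign turned positive under 3 alternatives: 0.028 with quantile normalisation, 0.016 with trends on length, base composition and level removed and 0.0079 without NRF ZT12 replicates 1 and 3. Hsph1, an HSP110 chaperone, was 284, 317, 298 and 329 CPM at DRF ZT0, 294, 265, 294 and 309 at NRF ZT12, 508, 407, 428 and 407 at NRF ZT0 and 340.1, 375, 360.2 and 416 at DRF ZT12. Every pre-meal mouse was below every mouse at the end of the meal (-0.43 ± 0.054, adjusted p = 0.000455), and dawn against dusk before the meal gave 0.08 (-0.056 to 0.21). Of the windows at its 2 annotated starts, the one at chr5:149636266-149636565 on the minus strand is shown with a heat-shock element, read as GAA, TTC and GAA with 2 bases between each on either strand, and an E-box in capitals.

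Hsph1: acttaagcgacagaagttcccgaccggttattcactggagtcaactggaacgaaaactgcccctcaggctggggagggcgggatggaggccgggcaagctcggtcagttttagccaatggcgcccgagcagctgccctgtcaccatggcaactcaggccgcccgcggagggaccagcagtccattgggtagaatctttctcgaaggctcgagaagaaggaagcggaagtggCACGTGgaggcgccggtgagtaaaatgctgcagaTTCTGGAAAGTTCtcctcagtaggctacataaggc

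The element begins at 15, counted from this start site as 0, and at 36 from the other annotated start, and is present in 0.603% of the 32851 windows. Hspe1, the mitochondrial co-chaperonin HSP10, was -0.23 at the end of the fast (adjusted p = 0.00543) and -0.022 (-0.14 to 0.099) between dawn and dusk. The window of Hspe1 held that element in overlapping copies, as did 1 window of its head-to-head neighbour Hspd1, whose own end-of-fast difference did not pass (-0.11, adjusted p = 0.17). Chaperones and stress factors of the endoplasmic reticulum gave 8 of 17 called lower at the end of the fast and 0 higher (median -0.17), among them Hspa5, BiP (-0.18, adjusted p = 0.0317). Without DRF ZT12 replicates 3 and 4 these were 4 of 17, and Hspa5 did not pass (-0.17, adjusted p = 0.0905). Dawn against dusk before the meal called 0 of 17.

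Metallothioneins, which bind zinc, were called higher at the end of the fast for Mt1 (0.49 ± 0.06, adjusted p = 0.000455) and Mt2 (0.56 ± 0.07, adjusted p = 0.000455), 2 of 3. Mt1 was 289, 246, 268 and 318 CPM at DRF ZT0 and 273, 255, 248 and 246 at NRF ZT12, and dawn against dusk it differed by 0.13 (-0.033 to 0.29). Hr, a corepressor that is itself a thyroid hormone target, was the 1 of 8 thyroid hormone genes called higher at the end of the fast (0.74 ± 0.095, adjusted p = 0.000574), at 56.00, 42.3, 42.2 and 44.6 CPM and 61.6, 48.9, 44.7 and 45.9 CPM in the pre-meal groups and 31.8, 22.5, 23.4 and 28.8 CPM and 33.3, 36.8, 25.9 and 26.9 CPM after the meal. Before the meal, dawn and dusk were -0.12 apart (-0.36 to 0.13). Of the glucocorticoid list, 5 of 13 were called higher at the end of the fast and all 13 differences were positive. For Sgk1 (0.88), Tsc22d3 and Klf9 this is the test of the step between regimens given above and no further result. Without DRF ZT12 replicates 3 and 4, Sgk1 was at 1.13, Tsc22d3 at 0.40 and Klf9 at 0.32 (limma adjusted p = 4.65e-05, 0.0011 and 0.019). Zbtb16 was at 0.62 (adjusted p = 0.0104), and at 0.47 (adjusted p = 0.0667) without DRF ZT12 replicates 3 and 4. Sgk1, Tsc22d3 and Klf9 were thus called both between dawn and dusk and between fast and meal, while Rbm3, Hsph1, Mt1 and Hr were called in the second contrast only; a gene that missed the threshold between dawn and dusk is bounded only by its interval.

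**Figure D5:**
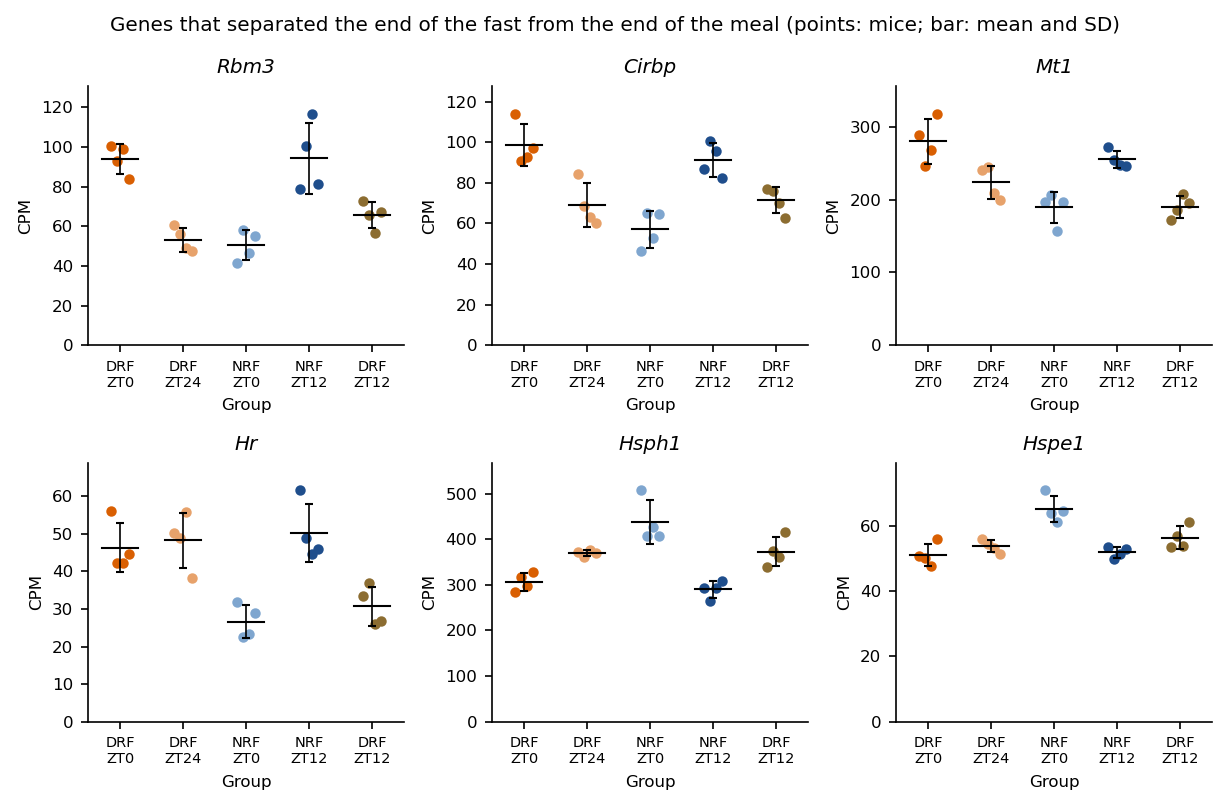
CPM of 6 genes in each mouse of the 5 groups, with bars at the mean and SD of 4 mice. Rbm3, Cirbp, Mt1 and Hr were high and Hsph1 and Hspe1 low at DRF ZT0 and NRF ZT12, and at DRF ZT24 Rbm3 was 47.4 to 60.5 CPM, below all 4 DRF ZT0 mice.

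The DRF ZT24 mice went against this pattern for the cold-inducible genes, although their regimen and hour were those of DRF ZT0. Rbm3 was 60.5, 55.9, 48.8 and 47.4 CPM at DRF ZT24, and it was the 1 gene called between DRF ZT0 and DRF ZT24 (0.82, adjusted p = 0.0224). Against NRF ZT12 those mice differed by -0.805 (adjusted p = 0.0158), where DRF ZT0 differed by 0.011. Cirbp was 84.5, 68.7, 63.2 and 60.4 CPM at DRF ZT24, and the difference of DRF ZT0 from it did not pass (0.51, adjusted p = 0.128). Hsph1 was 372, 360.5, 377 and 370.1 CPM at DRF ZT24, above every DRF ZT0 mouse, and was called higher there than at NRF ZT12 (0.35, adjusted p = 0.0165). Of the 18 cytosolic heat-shock genes, 17 were higher at DRF ZT24 than at NRF ZT12 (median 0.11, 2 called higher and 0 lower). In DRF ZT0 minus DRF ZT24, 14 of the 18 were lower and 4 higher (median -0.14, 0 called). Hr (50.2, 48.9, 55.7 and 38.1 CPM) overlapped DRF ZT0. For Rbm3 and Hsph1, the interval between dawn and dusk before the meal thus included 0 with the ZT0 mice, while the ZT24 mice differed from the same dusk group.

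Feeding peptides, neuropeptides and activity genes gave 0 called genes between the pre-meal groups. Of 15 feeding peptide and receptor genes, 0 were called, though 14 differences were positive (median 0.20). For DRF ZT24 against the same NRF ZT12 mice, 5 were positive and 10 negative (median -0.079), with 1 called, Glp1r, the GLP-1 receptor gene (0.64, adjusted p = 0.0199). Agrp, the hunger peptide of the arcuate nucleus, was 10.6, 2.95, 8.16 and 12.3 CPM at DRF ZT0 and 1.96, 4.503, 2.57 and 3.61 at NRF ZT12, with a wide spread between mice and a difference of 1.097 (0.36 to 1.83, adjusted p = 0.159). Pomc, a precursor of satiety peptides from the same nucleus, was 56.7, 21.2, 32.7 and 33.1 CPM against 15.1, 22.1, 17.5 and 21.4 CPM (0.81, adjusted p = 0.149). Summed markers of the mediobasal hypothalamus, a neighbouring region, were 27.6 to 55.2 CPM at DRF ZT0 and 19.2 to 35.0 at NRF ZT12, all 5 higher at DRF ZT0; their part in these genes was not tested, and Agrp is 1 of the 5. Pdk4, a kinase gene that is induced by fasting in many tissues, differed by 0.013 (-0.23 to 0.25). Avp, vasopressin, differed by 0.54 (0.075 to 0.996) and Vip by 0.15 (-0.29 to 0.600), with 0 of 13 suprachiasmatic genes and 0 of 11 neuroendocrine genes called. Immediate early genes gave 0 of 14 (median 0.19), and Fos was 9.002, 20.9, 27.6 and 19.5 CPM against 7.66, 13.2, 19.1 and 21.1 CPM, wide and overlapping. In 77 respiratory chain and ATP synthase subunits 0 were called, but 74 differences were negative (median -0.10), 71 to 74 of them under the scalings tried. The 78 ribosomal protein genes tested had a median of 0.015 with 0 called, and 0 of 26 lipid synthesis genes, 0 of 15 Hippo pathway genes, 0 of 14 insulin and FOXO genes and 0 of 8 clock kinases and ubiquitin ligases passed.

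The counts depended on single mice. Leaving out 1 mouse at a time gave 3 to 212 called genes: 8, 212, 6 and 4 without DRF ZT0 replicates 1, 2, 3 and 4, and 16, 87, 3 and 151 without NRF ZT12 replicates 1, 2, 3 and 4. Dbp, Tsc22d3 and Mmp14 passed in 8 of 8 of these fits, Cldn5 in 7, Klk6 in 6 and Hif3a in 5. Gltp, Klf9, Sox9 and Tmem163 passed in 4. Sgk1, Armh1, Frem2, Fzd2, Kcnn2, Ly6a, Ly6c1, Plekhf1, Sdc4 and Trp53inp2 passed in 3. The direction of all 21 genes was the same in each of these fits.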

How the data were processed

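The authors cleaned reads with SOAPnuke, mapped them with HISAT2 to GRCm38.p6, aligned to a coding gene set with Bowtie2, quantified with RSEM and normalised by TMM in edgeR. The deposited score, named TPM, behaves as log2(CPM + 1) divided by gene length and rescaled, which compresses differences. It was inverted to CPM: of 17564 genes, 15419 gave whole reads (99.9% of values within 0.1 read), 1225 were resolved to 2 decimals, 887 took a GENCODE length (approximate levels) and 33 gave none. Depth was 29591268 to 34493346 normalised reads per mouse.

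Genes were tested if the score reached 1 in no fewer than 80% of the 56 mice (16212 genes), on log2(CPM + 1), with limma 3.58.1 (eBayes with trend) in R 4.3.3, Benjamini-Hochberg over all genes, threshold 0.05, checked on simulated data. The main fit held the 8 mice compared, each a separate animal. Named genes were the 10 largest called differences per direction without overlap and with a mean log2(CPM + 1) of at least 1, filled up by p, the 5 smallest p per direction, and list members. Of the 21 genes called, 1 is not reported here. Members and lists were chosen with earlier results of these data known. RefSeq promoter windows (GRCm38.p6) matched 18 of 23 genes looked up. Scalings, filters, pseudocounts, fits, covariates, a replicate block and leaving out each mouse were tried as alternatives.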

Additional observations from a re-analysis of the deposited data

Results flagged for a closer look

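In 2 of 50 sets of 4 mice, 1 mouse stood apart from the other 3 by Dixon's ratio of gap to range, above its 95% critical value: Cldn5 in NRF ZT12 (0.87) and Gda in DRF ZT0 (0.876). Chance alone gives such a ratio in about 1 in 20 groups.

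For 11 of the 25 genes named by size or p, the dawn-to-dusk step differed between day-fed and night-fed mice by limma's interaction contrast. DRF minus NRF of the step was 2.56 for Hif3a, 1.76 for Sgk1, 0.86 for Plekhf1, 0.73 for Tsc22d3, 0.69 for Dbp, 0.63 for Sdc4, 0.59 for Klf9 and 0.48 for Fzd2, which were lower at dawn in NRF, and -0.83 for Mmp14, -0.76 for Cldn5 and -0.66 for Frem2, which were higher at dawn in NRF. In all 11 the NRF step was the larger in size. This contrast is 2 times that between the end of the fast and the end of the meal in the same mice, so that both are 1 test and a step that depends on regimen cannot be told apart from a difference between fast and meal.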

How the results depend on the processing

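For DRF ZT0 against NRF ZT12 (21 genes), the count was 18 to 23 under median centring, quantile normalisation, log2(CPM + 0.25), no filter, and voom on recovered reads (added after the data were seen). It was 0 with the deposited values as log2(value + 1) (2200 at an unadjusted p under 0.05), 39 with a mean log2(CPM + 1) of at least 1, 479 with all 56 mice in the fit, 196 with length, GC and level trends removed, and 0 without NRF ZT12 replicates 1 and 3 or with the thalamus or oligodendrocyte markers as a covariate (0 in each). DRF ZT24 against NRF ZT12 (153) gave 32 with the deposited values and 727 with all 56 mice, and 32 to 271 without 1 mouse. End of fast against end of meal (564) gave 893 with all 56 mice and 1301 with trends removed, 167 without DRF ZT12 replicates 3 and 4 (added after the data were seen), and 241 to 736 without 1 mouse. DRF ZT0 against NRF ZT12 without 1 mouse gave 3 to 212. DRF ZT0 against DRF ZT24 (1 gene, limma; 2534 at an unadjusted p under 0.05) gave 2 under median centring, quantile normalisation, log2(CPM + 0.25), a mean of at least 1, trends removed and voom, 5 with the deposited values, 0 with no filter (2611 at an unadjusted p under 0.05), 76 with all 56 mice, and 0 to 5 without 1 mouse. The causes were not tested.

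With the replicate block 21 became 7, 153 became 1, 564 became 282, and DRF ZT0 against DRF ZT24 gave 9. Deviations of same-numbered DRF ZT0 and NRF ZT12 mice correlated at -0.117 to 0.135, and 1 of 4 DRF ZT0 mice correlated best with its own number. The labels give no more than the number, and whether same-numbered mice shared a batch was not tested. Correlation of a mouse's deviations with GC content was -0.36 to 0.48.

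Of 524 values for the 25 genes named by size or p, 317 stayed on their side of the threshold, 184 no longer passed, 23 newly passed and 0 changed sign. Adjusted p of Dbp ranged from 3.8e-08 to 0.76 over them, and that of Sgk1 from 0.0141 to 0.975. Rbm3 between DRF ZT0 and DRF ZT24 kept its direction throughout, with adjusted p of 0.0524 with no filter and 0.162 without DRF ZT0 replicate 1.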
